A study of Mus musculus with 8 samples.

Results

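The 400 largest clusters of distal H3K27ac peaks were described in mouse embryonic fibroblasts (MEFs) at day 5 of reprogramming. They were chosen from 23315 clusters. To build them, H3K27ac peaks of both arms on chromosomes 1 to 19 and X were pooled, and peaks with a summit within 2 kb of an annotated start site were dropped. The remaining peaks were stitched across gaps of up to 12500 bp, and clusters were ranked by the sum of their summit heights over both arms. A summit height is the number of tags piled up at the top of a peak. Overlapping distal peaks of the arms were merged into constituents, of which the 400 clusters held 1769 of 32688.

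H3K27ac is an acetyl mark found at active promoters and enhancers, and H3K4me1 marks enhancers whether or not they are active. Long groups of acetylated enhancers often lie at genes that give a cell type its identity. BRG1 is the ATPase of the BAF complex, which moves nucleosomes and opens chromatin, and NANOG is a DNA-binding factor of the pluripotency network.

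Both arms were OG2 MEFs, taken from embryos of OG2 males and females of a 129 strain without regard to sex, that had received Oct4 from a retroviral vector in 2 rounds of infection and were kept in iCD3 medium. The NanogWT arm also received wild-type Nanog, and the NanogBiD arm received a fusion of Nanog with the BRG1-interacting domain of SS18. This fusion is NanogN70 in the labels, and the study's text was used to identify it with NanogBiD. FLAG is the tag through which NANOG was profiled in both arms. Each of the 4 targets (FLAG, BRG1, H3K27ac and H3K4me1) was profiled in each arm by CUT&Tag, in which an antibody guides a transposase to its target, so that there were 8 groups with 1 merged library each. No difference between arms could therefore be set against the spread between cultures, and the 95% intervals given here cover counting error only. The lists held 30859 to 74782 peaks, and the number of tags behind them is unknown.

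The cells were compared with the fibroblast label through acetylation at promoters. An H3K27ac summit lay within 2 kb of a start site for 12 of 15 fibroblast markers in NanogWT and 14 of 15 in NanogBiD. Among all 21728 protein-coding genes the shares were 56.5% and 59.2%. The same count was 3 and 6 of 10 for endothelial, 1 and 2 of 10 for haematopoietic, 2 and 4 of 10 for neural and 0 and 1 of 10 for hepatic markers. Within the pluripotency network it was 13 and 18 of 36. A retroviral culture can hold cells with and without the factors, and a smaller share of cells with a peak cannot be told apart from less signal per cell.

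DNA under the tallest NanogBiD FLAG summit is shown for the 3 highest clusters and for the 3 clusters with the largest excess of BRG1 peaks in NanogBiD, since these carry the comparison of the arms. Ties in peak number, here with the cluster in D17Wsu92e, were broken by the difference in summed BRG1 height. Sequences run from 50 bases before to 50 bases after the summit on the forward strand of GRCm38, the assembly behind mm10. Capitals mark ATGCAAA, the core of the octamer bound by OCT4, on either strand. This core was added after the sequences had been seen, and 2 of the 6 windows held it.

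Rank 1, intron of Arid1b, chr17:5151887-5151987: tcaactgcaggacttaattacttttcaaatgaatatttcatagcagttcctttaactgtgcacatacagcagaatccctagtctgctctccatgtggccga
Rank 2, intron of Tgfbr3, chr5:107110165-107110265: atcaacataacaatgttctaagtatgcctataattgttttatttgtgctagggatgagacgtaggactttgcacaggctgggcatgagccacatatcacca
Rank 3, outside genes near Smad5, chr13:56693746-56693846: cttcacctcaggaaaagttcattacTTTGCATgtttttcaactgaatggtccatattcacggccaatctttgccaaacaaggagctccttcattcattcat
Rank 200, intron of Fbn1, chr2:125350620-125350720: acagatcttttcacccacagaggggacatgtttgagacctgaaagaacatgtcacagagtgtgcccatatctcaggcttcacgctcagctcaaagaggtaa
Rank 17, outside genes near Klf6, chr13:5803837-5803937: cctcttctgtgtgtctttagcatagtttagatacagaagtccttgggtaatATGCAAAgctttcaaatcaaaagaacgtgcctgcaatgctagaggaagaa
Rank 125, intron of Osbpl6, chr2:76504591-76504691: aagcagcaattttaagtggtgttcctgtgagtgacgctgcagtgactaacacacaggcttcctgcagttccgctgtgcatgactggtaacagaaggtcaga

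Also shown are 3 of the tallest NanogBiD FLAG summits in the clusters that lay outside exons and had an AP-1 match in the window, because AP-1 was the most frequent of the consensus sequences searched at NanogBiD summits in the clusters. They were chosen after that had been seen. Capitals mark TGAGTCA, the AP-1 consensus, and GGAATG, the TEAD consensus.

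Rank 163, outside genes near Itga6, chr2:71644200-71644300: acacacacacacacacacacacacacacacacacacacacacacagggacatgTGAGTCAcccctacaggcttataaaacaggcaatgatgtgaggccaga
Rank 80, outside genes near Elovl5, chr9:77828792-77828892: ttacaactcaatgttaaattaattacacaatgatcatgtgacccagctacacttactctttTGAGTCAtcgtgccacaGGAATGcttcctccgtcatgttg
Rank 273, outside genes near Pfkfb3, chr2:11429750-11429850: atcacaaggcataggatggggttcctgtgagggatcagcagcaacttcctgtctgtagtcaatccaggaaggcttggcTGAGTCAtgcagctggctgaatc

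At the 6 summits of the first set the FLAG heights in NanogBiD were 53, 36, 48, 25, 38 and 59 tags, in the order of the lines, and 63, 58 and 53 tags at the AP-1 summits. BRG1 peaks over the Tgfbr3 and Smad5 windows, of 21 and 30 tags, were found in NanogBiD and not in NanogWT. The Smad5 window lay in a longer constituent where BRG1 was called in both arms, at 18 and 30 tags. At the Klf6 window BRG1 was 20 tags in NanogWT and 32 in NanogBiD, and at the Osbpl6 window 21 and 41 tags. At the Fbn1 window, in the cluster with the largest excess, it was 9 and 11 tags.

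The clusters spanned 12.3 Mb in all, with a median length of 28.8 kb and a range of 3.46 to 91.98 kb. They held a median of 4 constituents and at most 12. Of the other 22915 clusters, 74.4% were a single constituent. Summed H3K27ac height ranged from 125 to 512 tags with a median of 149, against a median of 23 in the other clusters. The 400 clusters held 8.81% of the summed height of all clusters. These heights chose the clusters and are a description.

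**Figure D1:**
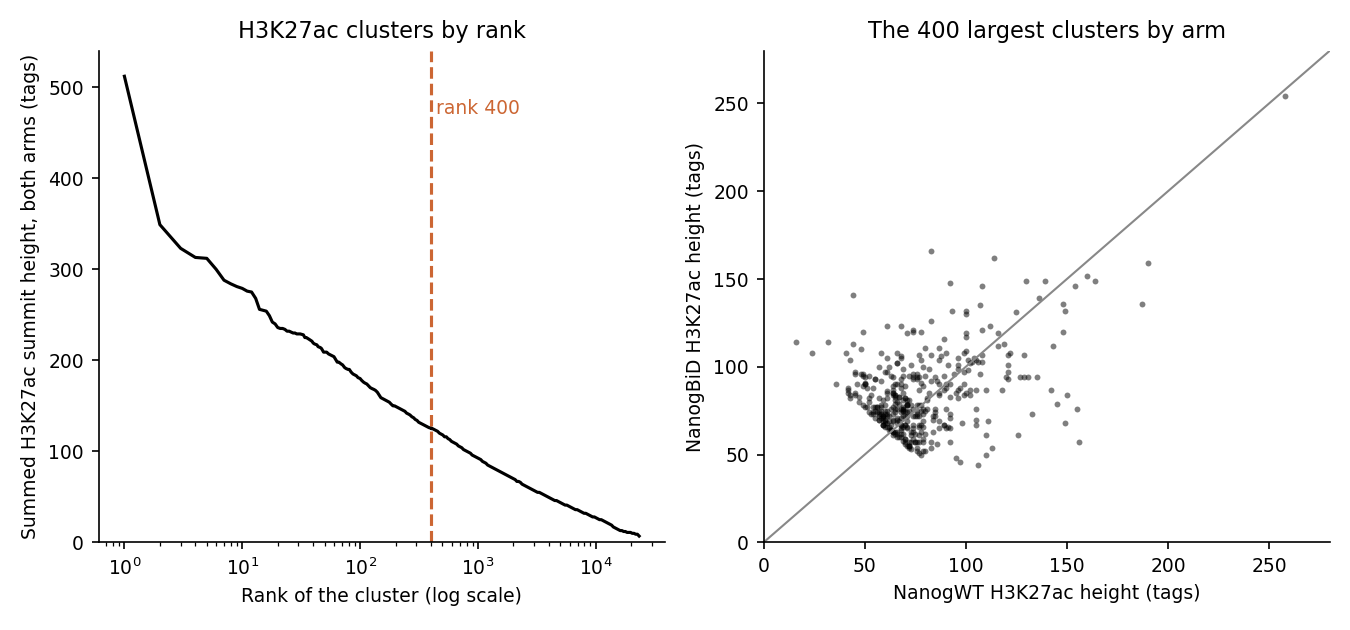
Left, the summed H3K27ac summit height of a cluster over both arms in tags against its rank on a log scale, with rank 400 as a dashed line. Right, the height in NanogBiD against NanogWT for each of the 400 clusters, with the line of equal heights in grey. Height falls from 512 tags at rank 1 to 349 at rank 2 and then more gradually to 125 at rank 400, and 235 clusters lie above the grey line.

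The threshold did not fall at a gap in the ranking. The centres of the last 2 clusters kept lay 72.7 kb from the start of Zmynd8 and 11.8 kb from that of Serpina3n, and the first 2 left out lay nearest Arhgap18 and Nedd1. Each of these 4 had a summed height of 125 tags. In all, 16 clusters had that height, and 2 of them were kept, by length. A cut at the point where the scaled rank curve has a slope of 1, as is common for super-enhancers, would have kept 1493 clusters, down to 78 tags.

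Every one of the 400 clusters had an H3K27ac peak in each arm, against 12537 of all 23315, and the ranking summed both arms. H3K27ac height was higher in NanogBiD in 235 clusters, higher in NanogWT in 160 and equal in 5. Over all 23315 clusters these counts were 14502, 8008 and 805. The ranking used the same heights, so nothing is read from the difference. The log2 ratio of NanogBiD over NanogWT had a median of 0.11, against 0.13 in the other clusters, and ranged from -1.45 to 2.83. Peaks were present in both arms at 67.9% of constituents, in NanogBiD only at 18.9% and in NanogWT only at 13.2%. In the other clusters these shares were 43.1%, 37.9% and 19.03%.

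The 10 highest clusters included a pair inside Arid1b, which encodes a DNA-binding subunit of BAF. The highest, at chr17:5132260-5221630, was 89.4 kb long with 11 constituents, and its H3K27ac summed to 258 tags in NanogWT and 254 in NanogBiD. The fifth lay at chr17:5255177-5315476 with heights of 160 and 152 tags. Rank 2 lay in Tgfbr3, a co-receptor for TGF-beta, at chr5:107109540-107201520, with 190 and 159 tags. Rank 3, at chr13:56634032-56721471, overlapped Smad5, a BMP signal transducer, and Tgfbi, a secreted matrix protein induced by TGF-beta, with 187 and 136 tags. Rank 10 lay on the same chromosome at chr13:56538733-56583779, overlapped Lect2 and had 130 and 149 tags.

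The other clusters of the first 10 lay in Ralgapa2 (rank 4, nearest start Insm1), nearest Wdr95 (rank 6) and nearest Cdc42ep3 (rank 7), in Maml3 (rank 8), which encodes a coactivator of Notch signalling, and nearest Irf2 (rank 9), an interferon regulatory factor. Heights in these 5 ranged from 139 to 164 tags in NanogWT and from 132 to 149 in NanogBiD. BRG1 peaks in the 10 clusters numbered 4 to 8 in NanogWT and 5 to 9 in NanogBiD. They were fewer in NanogBiD in the Arid1b clusters (8 and 7, and 7 and 6), in Tgfbr3 (6 and 5) and near Irf2 (6 and 5). Near Wdr95 they were equal, at 6, and in the rest there were more in NanogBiD. Summed BRG1 height was higher in NanogBiD in 9 of the 10 clusters, the exception being the fifth, with 99 tags in NanogWT and 82 in NanogBiD.

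BRG1 was then compared between the arms over all 400 clusters. BRG1 peaks with a summit in a cluster numbered 1174 in NanogWT against 1431 for NanogBiD, and NanogBiD over NanogWT was 1.22 (95% interval 1.13 to 1.32). Outside the 400, the other clusters gave 1.59 (1.56 to 1.63), and the whole lists 1.74 (1.72 to 1.77). The peaks covered 1664 kb in NanogWT and 2068 kb in NanogBiD, and their mean height was 16.9 and 19.5 tags. The BRG1 ratio of the clusters was thus above 1 but below that of the other clusters, with intervals that did not overlap. The ranking summed H3K27ac over both arms, so this contrast is a description. Ranking by NanogWT heights alone gave 1.19 and by NanogBiD heights alone 1.31, and peaks at constituents acetylated in both arms gave 1.097. The direction turned in 1 setting: when every list was cut to its 20000 highest-scoring peaks and the clusters were built anew, the BRG1 ratio was 0.909 (0.814 to 1.01). The cut gives both arms lists of one length, so the ratio of the whole lists is about 1 by construction. The ratio of the clusters was below that of the whole lists in the main setting and after the cut, although after the cut its interval included 1. There, 200 of the 400 clusters were overlapped by one of the new 400, and BRG1 was at 73.5% of constituents in NanogWT and 67.4% in NanogBiD.

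FLAG peaks, which mark NANOG, numbered 1502 and 1589 in the clusters, a ratio of 1.06 (0.985 to 1.14) whose interval included 1. That call depended on the setting, since the interval lay above 1 with gaps of up to 20 kb, at 1.09 (1.03 to 1.156), when ranked by NanogBiD heights, at 1.11 (1.03 to 1.19), and with at least 15 tags, at 1.12 (1.03 to 1.23). The other clusters gave 1.08 (1.06 to 1.103) and the whole lists 1.27 (1.26 to 1.28). FLAG peaks covered 2380 kb and 2540 kb, with mean heights of 23.02 and 24.96 tags. H3K4me1 peaks numbered 1406 and 1196, a ratio of 0.851 (0.787 to 0.919), against 0.889 (0.872 to 0.907) in the other clusters and 0.791 (0.783 to 0.800) over the whole lists. The interval of the clusters included the ratio of the whole lists. These peaks covered 2255 kb and 1621 kb, with mean heights of 19.3 and 16.8 tags. After the cut to 20000 peaks the ratio was 0.930 (0.828 to 1.05) for FLAG and 1.002 (0.872 to 1.15) for H3K4me1, and the intervals of all 3 targets included 1.

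**Figure D2:**
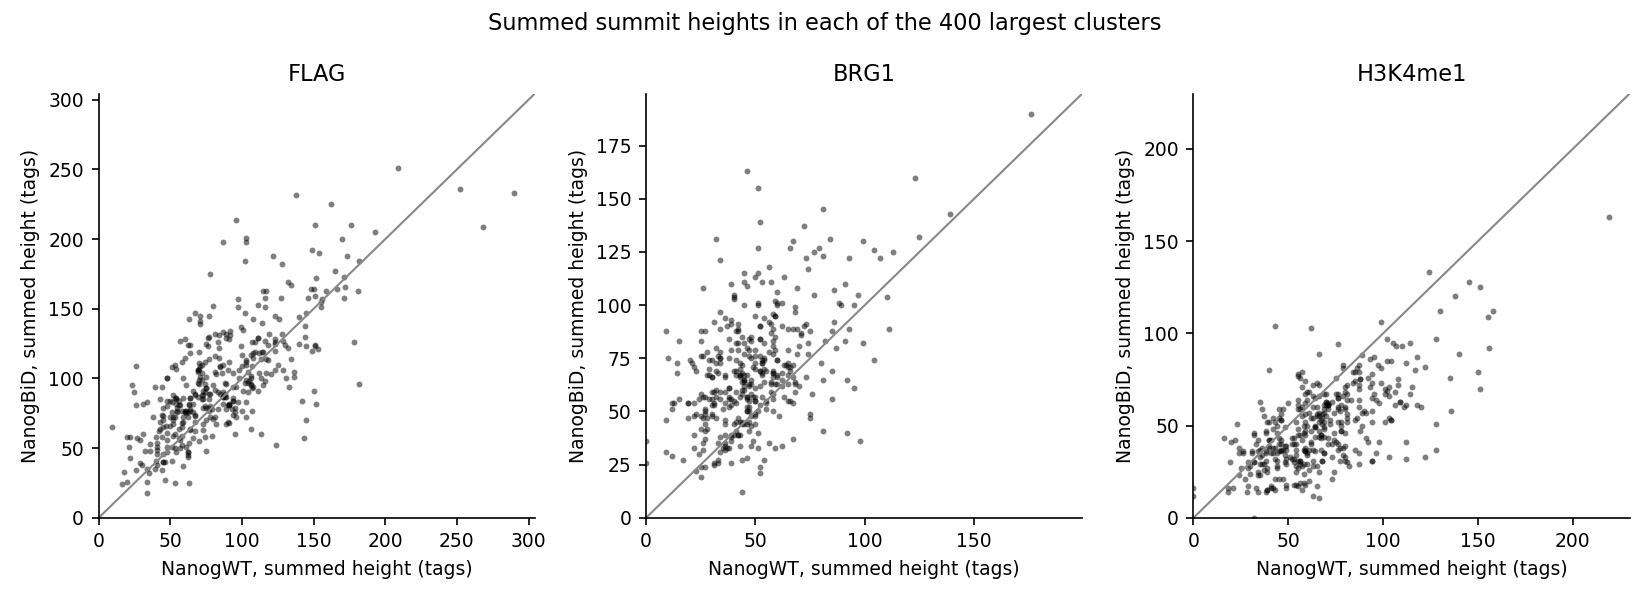
Each point is 1 of the 400 clusters, with the summed summit height of its FLAG, BRG1 or H3K4me1 peaks in tags in NanogWT on the horizontal and in NanogBiD on the vertical axis. The grey line marks equal heights. Most clusters lie above it for BRG1 (312 clusters) and FLAG (266) and below it for H3K4me1 (323).

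Counted by cluster, 208 had more BRG1 peaks in NanogBiD, 52% (47.1 to 56.9), against 37.2% of all clusters. There were 69 with fewer, 17.25% (13.9 to 21.3), against 7.72% of all. Both shares were above those of all clusters, most of which hold a single constituent. Summed BRG1 height was higher in NanogBiD in 312 clusters, 78% against 61.2% of all, and lower in 81, 20.25% against 15%. After the cut to 20000 peaks the balance turned, and clusters with more minus clusters with fewer BRG1 peaks in NanogBiD came to -58. The clusters within Smad3 and Sfswap had no BRG1 peak in NanogWT and 2 each in NanogBiD.

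For FLAG, 139 clusters had more peaks in NanogBiD (34.75%, against 19% of all clusters) and 90 had fewer (22.5%, against 12.2%). For H3K4me1, 67 had more (16.75%, against 13.5%) and 188 had fewer (47%, against 22.6%). These balances turned too after the cut to 20000 peaks, to -33 for FLAG and 4 for H3K4me1, and the FLAG balance was -1 at constituents acetylated in both arms. Summed FLAG height was higher in NanogBiD in 266 clusters (66.5%, against 52.5%) and lower in 127 (31.75%, against 31.7%). Summed H3K4me1 height was higher in 76 (19%, against 23.4%) and lower in 323 (80.75%, against 55.3%), so that FLAG and H3K4me1 heights leaned opposite ways.

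At the level of constituents, BRG1 overlapped 61.6% (59.3 to 63.8) in NanogWT and 74.1% (71.96 to 76.0) in NanogBiD. The other clusters had shares of 41.9% (41.3 to 42.4) and 66.96% (66.4 to 67.5). BRG1 was called in NanogBiD only at 359 constituents, 20.3% (18.5 to 22.2), against 31.1% of all constituents. It was called in NanogWT only at 138, 7.80% (6.64 to 9.14), against 6.67% of all. NanogBiD-only BRG1 was thus less frequent than over all constituents, and the interval of NanogWT-only BRG1 included the background. H3K27ac height ranked the clusters and these shares vary with it, so the contrast is a description.

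Constituents were also split by their H3K27ac height. The clusters were ranked by that same height and the split was chosen after the shares had been seen, so these shares are a description. Under 15 tags, BRG1 in NanogWT was found at 23.3% (19.3 to 27.9) of constituents in the 400 clusters and 24.997% (24.4 to 25.6) in the others. From 15 to 24 tags the shares were 55.8% and 57.4%, from 25 to 34 tags 89.6% in both, and at 35 tags or more 99.5% and 96.2%. In NanogBiD, the shares below 25 tags were lower in the 400 clusters, at 45.8% (40.8 to 50.9) against 54.7% under 15 tags and 71.9% (68.6 to 74.9) against 79.8% from 15 to 24 tags. BRG1 in NanogBiD only was at 31.4% (26.9 to 36.3) against 36.7% under 15 tags and 26.4% (23.5 to 29.6) against 29.2% from 15 to 24. From 25 to 34 tags it was at 7.63% (5.40 to 10.7) against 8.53%, and at 35 tags or more 0.490% against 3.58%.

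**Figure D3:**
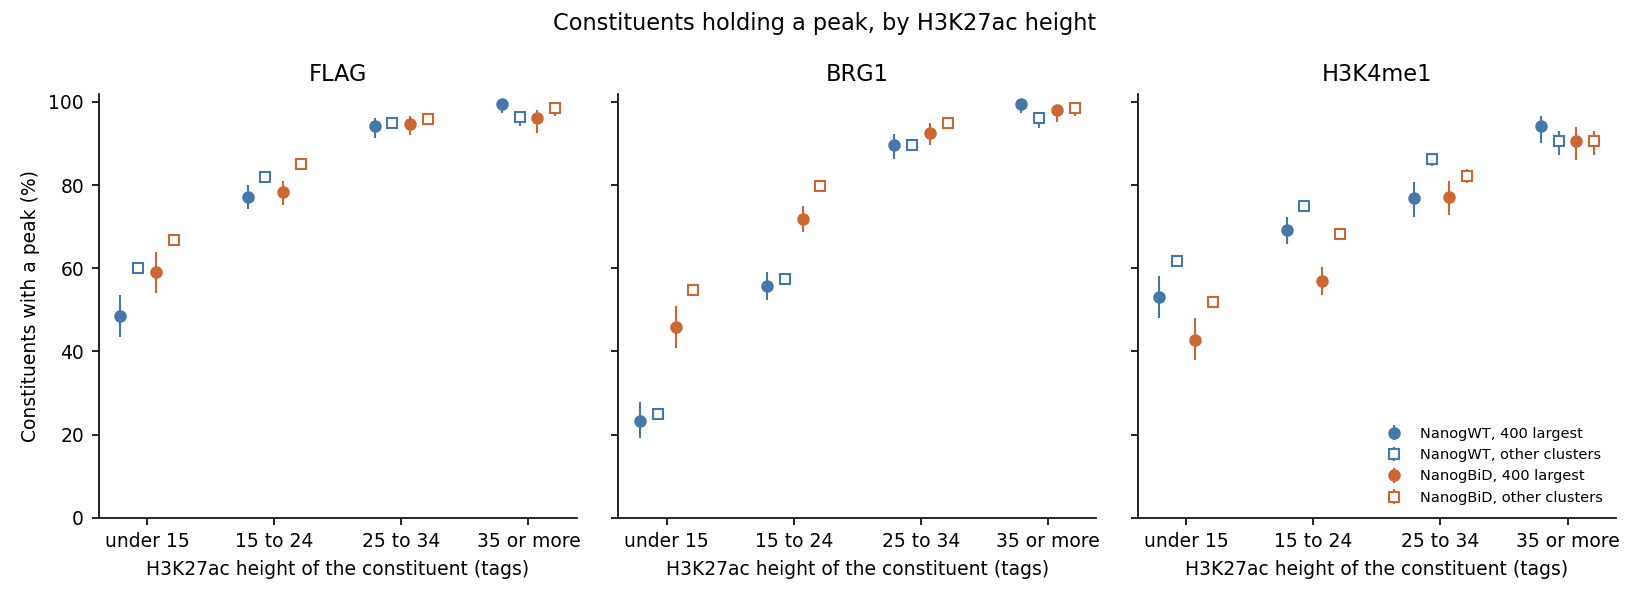
Share of constituents with a FLAG, BRG1 or H3K4me1 peak in percent, by the H3K27ac height of the constituent in tags, with 95% Wilson intervals. Filled circles are the 400 clusters and open squares the other clusters. Shares climb with height in every series, and for BRG1 in NanogWT from 23.3% to 99.5% in the 400 clusters.

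FLAG was found at 77.6% (75.6 to 79.4) of constituents in NanogWT and 79.9% (78.0 to 81.7) in NanogBiD. It was called in NanogBiD only at 10.1%, against 14.2% of all constituents, and in NanogWT only at 7.74%, against 9.36%. H3K4me1 was found at 70.4% (68.2 to 72.5) and 62.4% (60.1 to 64.6). It was called in NanogWT only at 16.7%, against 18.1% of all, and in NanogBiD only at 8.65%, against 9.95%. For both targets the shares of constituents called in a single arm were near or below the background.

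Where a target was called in both arms, its heights were set side by side. They were not scaled to depth, so a difference between arms cannot be told apart from a difference in depth. The median log2 ratio of NanogBiD over NanogWT was 0.26 for BRG1 over 951 constituents, 0.15 for FLAG over 1235 and -0.25 for H3K4me1 over 950. Elsewhere it was 0.34, 0.16 and -0.22. BRG1 was at least 2 times as high in NanogBiD at 79 constituents, 8.31% (6.72 to 10.2), against 13% of all. It was at least 2 times as high in NanogWT at 4, 0.421% against 0.464%. For FLAG the counts were 82 (6.64%, against 9.67%) and 23 (1.86%, against 2.81%). For H3K4me1 they were 0 (0%, against 0.00606%), which allows a share of up to 0.316%, taken as 3 counts of 950, and 10 (1.053%, against 1.24%).

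The 359 constituents with BRG1 in NanogBiD only were then split by acetylation. H3K27ac was present in both arms at 168 of them and in NanogBiD only at another 168, or 46.8% (41.7 to 51.96) each, and in NanogWT only at 23. In the other clusters H3K27ac was in NanogBiD only at 64.2% of the corresponding constituents, and in both arms at 28.0%. The ranking summed H3K27ac over both arms, so this contrast is a description. With or without BRG1, 18.9% of constituents in the clusters chosen were acetylated in NanogBiD only and 67.9% in both arms. In the other clusters these shares were 37.9% and 43.1%. Of the 335 constituents acetylated in NanogBiD only, 20.9% (16.9 to 25.6) had BRG1 in NanogWT and 67.8% (62.6 to 72.5) in NanogBiD, near the 18.2% and 69.2% of the other clusters. Of the 233 acetylated in NanogWT only, 33.0% (27.3 to 39.3) and 23.2% (18.2 to 29.0) did, against 28.9% and 26.97%. Among the 1201 acetylated in both arms the shares were 78.4% (76.0 to 80.7) and 85.7% (83.6 to 87.5), against 68.4% and 82.7%.

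NANOG and BRG1 were then followed together. Of the 1235 constituents where FLAG was called in both arms, 71.3% had BRG1 in both as well and 20.2% (18.1 to 22.6) had it in NanogBiD only. For the remaining clusters those shares were 52.6% and 35.4%. Among the 179 constituents with FLAG in NanogBiD only, BRG1 was in NanogBiD only at 45.3% (38.1 to 52.6), against 55.2% elsewhere. Among the 137 with FLAG in NanogWT only, BRG1 was in NanogWT only at 40.1% (32.3 to 48.5), against 23.2%. FLAG was absent from 218 constituents, and 74.3% (68.1 to 79.7) of these had no BRG1 peak in either arm, against 79.8%.

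Of FLAG peaks in the clusters, 68.8% (66.5 to 71.1) overlapped BRG1 in NanogWT and 84.2% (82.3 to 85.9) in NanogBiD. In the other clusters the shares were 53.4% and 83.0%, so the intervals of the 400 and of the other clusters lay apart in NanogWT and overlapped in NanogBiD. Of BRG1 peaks in the clusters, 88.6% and 94.2% overlapped FLAG, near the 89.5% and 94.4% of the other clusters. The share of BRG1 peaks that overlapped H3K4me1 was 79.1% (76.7 to 81.4) in NanogWT and 66.5% (64.0 to 68.9) in NanogBiD, against 82.8% and 67.3%.

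At least 91.3% of the FLAG, BRG1 and H3K4me1 peaks lay at a constituent in each library, and the gaps between constituents held few. Peaks specific to an arm lay in gaps more often. For FLAG, 26.98% (22.1 to 32.5) of the 278 NanogBiD-only peaks and 18.9% (14.02 to 24.9) of the 196 NanogWT-only peaks were in gaps, against 2.59% (1.86 to 3.60) of the NanogBiD peaks also called in NanogWT. For BRG1 the shares were 11.9% of 444 NanogBiD-only peaks, 11.5% of 183 NanogWT-only peaks and 0.811% of NanogBiD peaks also called in NanogWT. The NanogBiD-only FLAG peaks in gaps had a median height of 15 tags.

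Clusters with the largest excess of BRG1 peaks in NanogBiD were named by rule, with ties broken by the difference in summed BRG1 height, and their BRG1 values are therefore a description. The largest excess was at chr2:125320533-125356815 (rank 200), within Fbn1, which encodes the microfibril protein fibrillin-1. BRG1 had 1 peak of 9 tags there in NanogWT and 7 peaks with a summed height of 88 tags in NanogBiD. FLAG had 6 peaks in each arm, with 90 and 106 tags, H3K27ac 71 and 78 tags, and H3K4me1 62 and 40 tags. These sums are over the whole cluster: the tallest BRG1 peak in NanogBiD, of 21 tags, was at a constituent where H3K27ac and FLAG were called in NanogBiD only as well. Every BRG1 peak there was low, at 9 to 21 tags.

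The cluster at chr13:5776540-5820274 (rank 17) had its centre 63.1 kb from the start of Klf6, a zinc finger factor of the Kruppel-like family. BRG1 had 2 peaks with 46 tags in NanogWT and 7 with 163 in NanogBiD. H3K27ac height was 83 and 166 tags, FLAG 170 tags in 7 peaks and 200 in 6, and H3K4me1 35 and 63 tags. All 4 targets had a higher summed height in NanogBiD there. At its first constituent FLAG was 15 and 27 tags, and BRG1 was called in NanogBiD only, at 25 tags.

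The cluster in Osbpl6 (chr2:76483137-76519179, rank 125) had 2 and 7 BRG1 peaks, with H3K27ac heights of 49 and 120 tags. The cluster in D17Wsu92e (chr17:27745522-27789180, rank 11) had 2 and 7, with 114 and 162 tags. That in Tbc1d22a (chr15:86241958-86294036, rank 20) had 4 and 8, with 129 and 107 tags. Its excess of 4 peaks was shared with other clusters, Cdkal1, Lmnb1 and Col8a1 among them, which had smaller differences in BRG1 height.

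The largest differences in favour of NanogWT were smaller. The cluster in Zfp516 (chr18:82933103-82984019, rank 30) had 6 BRG1 peaks in NanogWT and 2 in NanogBiD, with summed heights of 98 and 36 tags. H3K27ac was 135 and 94 tags there, FLAG 95 and 60, and H3K4me1 112 and 32, so all 4 targets were lower in NanogBiD. The cluster in Adcy9 nearest Crebbp, which encodes a histone acetyltransferase for H3K27 (chr16:4259853-4293762, rank 214), had 6 and 3 BRG1 peaks. The one in Fam53b (chr7:132711199-132752955, rank 35), which also overlaps an annotated transcript of Fgfr2, had 4 and 1. The cluster nearest Dlk1, an imprinted gene for a Notch-family ligand (chr12:109393367-109447676, rank 103), had 5 and 2, and that nearest Fgfr4 (chr13:55171079-55191046, rank 75) had 4 and 2, a deficit that other clusters shared. Among peaks of at least 15 tags, the Dlk1 cluster had 1 more BRG1 peak in NanogBiD.

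Differences in FLAG and H3K4me1 singled out other clusters. The largest excess of FLAG peaks in NanogBiD was 4 peaks, found in 5 clusters. Of these, the one in Plekha5 nearest Aebp2 (chr6:140511890-140568358, rank 330) had the largest difference in summed FLAG height, 118 tags, with 6 peaks in NanogWT and 10 in NanogBiD and summed heights of 96 and 214 tags. H3K4me1 had 7 peaks with 128 tags in NanogWT and 2 with 37 in NanogBiD there, BRG1 had 4 and 7 peaks, and H3K27ac summed to 42 and 88 tags. H3K4me1 thus differed in the opposite direction to the other 3 targets in this cluster. FLAG peaks numbered 1 and 5 near Col18a1 (rank 305) and 4 and 8 in Parva (rank 82). In the Tgfbr3 cluster they numbered 14 in NanogWT and 10 in NanogBiD, in the second Arid1b cluster 9 and 6, and near Lep (rank 242) 8 and 5. The Lep cluster had 2 BRG1 peaks in NanogWT and 5 in NanogBiD, so NANOG and BRG1 counts differed in opposite directions there. At constituents acetylated in both arms, however, Lep had 1 more FLAG peak in NanogBiD.

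H3K4me1 had 7 peaks in NanogWT and 2 in NanogBiD in Fndc3b (rank 197), and 6 and 2 in Tgfbr2 (rank 29). Its largest excess in NanogBiD was near 1700016C15Rik (chr1:177605335-177640405, rank 334), with 2 and 6 peaks. That cluster also had the highest H3K27ac ratio of the 400, with 16 tags in NanogWT and 114 in NanogBiD, and BRG1 summed to 40 and 103 tags. The clusters in Vps13d (rank 34) and Lrig1 (rank 144) had 3 and 6, and 2 and 5 H3K4me1 peaks. Lrig1 had 1 fewer in NanogBiD among peaks with a score of at least 100, and Tgfbr2 had 1 more after the cut to 20000 peaks.

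**Figure D4:**
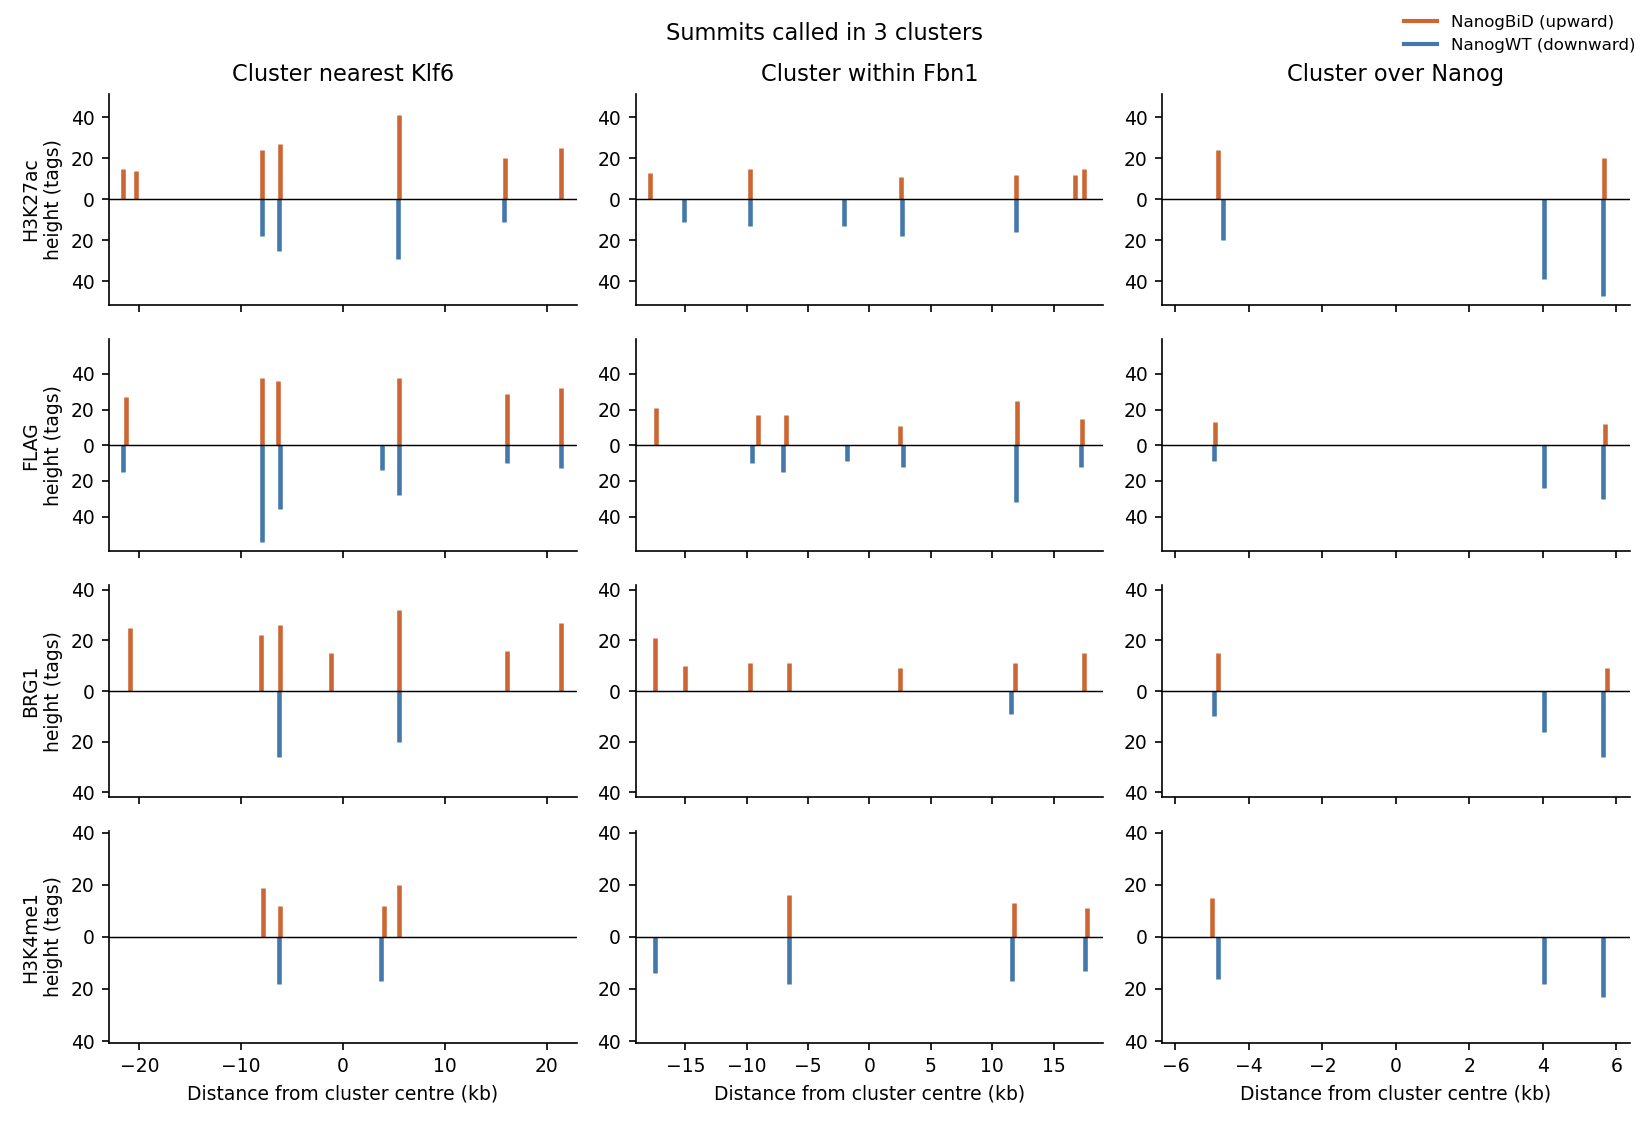
Summits in the clusters nearest Klf6, within Fbn1 and over Nanog, by distance from the cluster centre in kb, with the summit height in tags drawn upward for NanogBiD and downward for NanogWT. At Klf6 and Fbn1 most BRG1 bars are in NanogBiD (7 against 2 and 7 against 1), while over Nanog the tallest bars of every target are in NanogWT.

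Over the 400 clusters, differences in summed height between the arms went together for H3K27ac, NANOG and BRG1. Spearman's rho was 0.43 for H3K27ac with FLAG, 0.43 for H3K27ac with BRG1 and 0.41 for FLAG with BRG1. It was 0.15 to 0.18 for each of these with H3K4me1. The clusters differ in length and number of constituents, and each target rests on 1 pair of libraries. H3K27ac heights also chose the clusters, so the correlations and the splits by H3K27ac below are descriptions. BRG1 height was higher in NanogBiD in 204 of the 235 clusters where H3K27ac was higher, and in 105 of the 160 where it was lower. H3K4me1 height was lower in NanogBiD in 180 of the 235 and in 139 of the 160. These splits cover the 400 clusters only. Over all 23315 clusters, unsplit, BRG1 height was higher in NanogBiD in 61.2% and H3K4me1 height was lower in 55.3%.

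Genes were linked to a cluster when their start lay within 50 kb of its span or their body overlapped it, which gave 608 of 21728 protein-coding genes, or 2.80%. Of the TGF-beta and BMP list, 6 of 25 genes were linked: the receptors Tgfbr2 and Tgfbr3, the signal transducer Smad3, the inhibitory Smad7, the corepressor Ski and the target Id3. Of the TEAD and Hippo list, 5 of 16 were linked: Tead1, its coactivator Wwtr1, its cofactor Vgll4 and the target genes Ccn1 and Ccn2, which encode secreted matrix proteins. Both counts were above the share of all genes, and linkage was not tested against chance.

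At the Smad3 cluster (rank 227), BRG1 was called in NanogBiD only, in 2 peaks with 36 tags, and H3K27ac was 49 and 96 tags. At the Tgfbr2 cluster BRG1 was 60 and 67 tags, while H3K27ac was 142 and 87 tags, FLAG 124 and 52, and H3K4me1 103 and 33. The Smad7, Ski and Id3 clusters each had BRG1 heights higher in NanogBiD, at 44 and 60, 30 and 48, and 35 and 51 tags. BRG1 height was higher in NanogBiD at all 6 linked genes of the list, beside 78% of the 400 clusters, and H3K27ac at 2 of them, Smad3 and Ski, beside 235 of the 400. Counts over 6 clusters are too few to set the list apart.

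In the TEAD and Hippo list, BRG1 peaks numbered 2 and 5 at the Ccn2 cluster (rank 366), with 26 and 76 tags, and 3 in each arm at Ccn1 (rank 179), with 58 and 77 tags. Tead1 (rank 171) had 25 and 42 tags. Wwtr1 (rank 306) had 39 and 36 tags and Vgll4 (rank 50) 110 and 104, so these 2 were slightly lower in NanogBiD. FLAG height was lower in NanogBiD at 4 of the 5, with Tead1 as the exception, beside 31.75% of the 400 clusters. The number of FLAG peaks was equal in 4 of the 5 and lower in 1.

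Of genes for extracellular matrix, 1 of 27 was linked, Fbn1. The list was short of other matrix genes that the clusters overlapped or lay nearest, such as Col8a1, Col6a6, Col18a1 and Tgfbi, as the TGF-beta and BMP list was of Smad5. Of contractile and actin genes, 2 of 22 were linked: Tpm1 (tropomyosin, rank 250), where H3K27ac was 54 and 88 tags and BRG1 54 and 94, and Actn1 (alpha-actinin, rank 287), where they were 46 and 90, and 32 and 57. Runx1 was the 1 of 4 RUNX genes (rank 27), with 66 and 55 BRG1 tags. Fos was the 1 of 14 AP-1 genes (rank 58), with 65 and 73. The keratin genes Krt8 and Krt18, 2 of 18 on the epithelial list, shared a cluster (rank 304) with 44 and 45 BRG1 tags. Arid1b was the 1 of 21 BAF subunits, and Fgfr2 the 1 of 15 growth factor receptors, by its annotated body only. The receptor list did not hold Fgfr4.

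None of 21 mesenchymal transcription factors was linked, and none of the 15 fibroblast, 10 endothelial, 10 haematopoietic, 10 neural or 10 hepatic markers. At the 2.80% linked over all genes, lists of this size would hold few or no linked genes, so these counts of 0 are near the background. Of the pluripotency network, 1 of 36 was linked, which was Nanog.

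The Nanog cluster (chr6:122701574-122713695, rank 196) was higher in NanogWT for all 4 targets: 106 and 44 tags for H3K27ac, 63 and 25 for FLAG, 52 and 24 for BRG1 and 57 and 15 for H3K4me1. Of its 3 constituents, 2 overlapped exons of Nanog. H3K27ac there was 39 and 47 tags in NanogWT, and in NanogBiD it was called at 1 of the pair, at 20 tags. Both arms carried retroviral Nanog sequence, and reads from the vector and from the locus cannot be told apart in these lists. The remaining constituent, upstream of the gene, had H3K27ac heights of 20 and 24 tags, FLAG heights of 9 and 13 and BRG1 heights of 10 and 15, so these 3 targets were higher in NanogBiD there. Without the peaks on exons the cluster would have summed to 44 tags and would not have been among the 400.

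Constituents of the clusters lay in introns in 56.9% (54.5 to 59.2) of cases, outside genes in 39.1% and over exons in 4.01%. Of constituents elsewhere, 52.99%, 42.9% and 4.16% did. The median distance to a protein-coding start was 55.2 kb, against 55.4 kb in the other clusters. A protein-coding gene was overlapped by 252 clusters, 63.0% (58.2 to 67.6), against 51.7% of the shorter other clusters. By chromosome, counts ranged from 1 on X and 9 on chromosome 14 to 28 on chromosome 2.

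Sequence at FLAG summits was compared within 50 bp either side, on both strands, and in equal windows 1 kb away. TGAGTCA, the AP-1 consensus, was found at 8.19% (6.91 to 9.68) of the 1502 NanogWT summits in the clusters and 9.94% (8.57 to 11.5) of the 1589 NanogBiD summits. In windows 1 kb away it was found in 1.60% and 1.95%. In the other clusters the shares were 7.85% and 9.66%, and over all FLAG summits 5.82% and 7.68%. AP-1 thus stood above its distant windows in both arms, and the intervals of the large clusters included the shares of the others.

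Within the clusters, AP-1 matches lay at 10.1% (8.63 to 11.9) of NanogBiD summits shared with NanogWT, at 8.99% (6.17 to 12.9) of the 278 found in NanogBiD only and at 4.08% (2.08 to 7.85) of the 196 found in NanogWT only. They lay at 11.7% (9.85 to 13.96) of NanogBiD summits with BRG1 in both arms and at 7.89% (5.61 to 10.98) of those with BRG1 in NanogBiD only. The latter intervals overlapped. Within 25 bp they lay apart, at 6.77% (5.34 to 8.56) with BRG1 in both arms and 2.54% (1.39 to 4.62), from 10 matches, with BRG1 in NanogBiD only. In the other clusters these shares within 25 bp were 5.99% and 3.92%.

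The octamer ATGCAAAT was found at 1.89% (1.33 to 2.68) of NanogBiD summits in the clusters and 2.85% (2.65 to 3.07) in the other clusters, against 0.315% and 0.597% 1 kb away and 2.49% of all NanogBiD FLAG summits. In NanogWT the shares were 2.13% (1.51 to 2.99) and 2.27%, which did not differ beyond counting error. At NanogBiD summits with BRG1 in NanogBiD only, it was found at 5 of 393 in the clusters, 1.27% (0.545 to 2.94), and at 3.46% (3.11 to 3.86) in the other clusters. This rests on 5 matches. Within 25 bp it was 1 of 393 (0.0449 to 1.43%) against 1.54% (1.31 to 1.81), where the intervals overlapped, and at FLAG summits found in NanogBiD only the shares were 2.88% (1.47 to 5.57) and 2.78% with the wider window. Over all NanogBiD summits the shares within 25 bp were 0.629% (0.342 to 1.155) and 1.30% (1.163 to 1.45). The shorter core ATGCAAA, which every octamer contains, was found at 5.35% (4.35 to 6.57) against 6.53%.

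For TEAD, GGAATG was found at 7.55% (6.35 to 8.96) of NanogBiD summits in the clusters, against 5.41% 1 kb away. For SOX, ACAATGG or ACAAAGG was found at 4.91% (3.95 to 6.08), against 3.02%, and for RUNX, TGTGGTT at 3.46% (2.67 to 4.48), against 2.33%. The CTCF consensus was found at 2 of 1589 summits. The intervals of the clusters included the share in the other clusters for TEAD (7.64%), SOX (5.17%), RUNX (3.61%) and CTCF (0.301%).

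**Figure D5:**
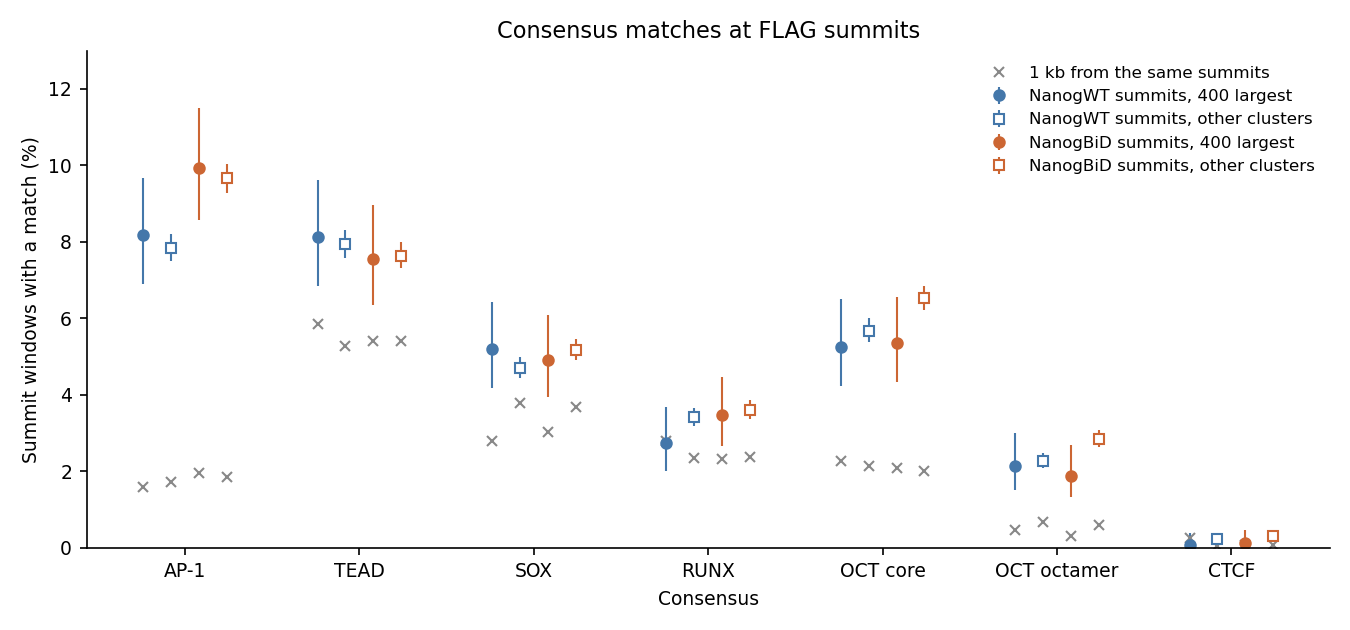
Share of FLAG summit windows with a consensus match in percent, with 95% Wilson intervals, for summits in the 400 clusters (filled circles) and in other clusters (open squares). Grey crosses give the share in windows 1 kb from the same summits. In percentage points, AP-1 stands highest above its crosses (9.94% against 1.95% at NanogBiD summits of the 400 clusters). The octamer in NanogBiD is lower in the 400 clusters (1.89%) than in the others (2.85%).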

How the data were processed

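CUT&Tag was performed on OG2 MEFs, and sources differ on the number of cells and the kit used. Per the labels and the study's methods, the authors trimmed reads with Trim Galore 0.6.4, aligned them to mm10 with Bowtie2 2.4.5, removed poorly mapped, repetitive and mitochondrial reads with SAMtools 1.16.1 and merged replicates, whose number was not given per target. Peaks were called with MACS 1.4.2 with duplicates collapsed, and no control library was named. This limits heights at strong sites. The antibody of the H3K4me1 libraries is labelled H3K4me. In the deposited peak lists the value is the caller's score, -10 times log10 of its p-value, with a lowest value of 50.0. In the deposited summit lists it is the signal, a whole number of tags at the summit. Neither was scaled to depth, which is unknown, so more peaks can come from a deeper library.

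Peaks and summits were joined by name. Start sites were those of all transcripts of the GENCODE M21 annotation, and genome sequence came from the RefSeq copy of GRCm38. A peak belonged to a cluster by its summit, and overlap with a constituent needed at least 1 bp. Ties in rank were broken by length. The stitching gap, promoter distance, ranking measure, number of clusters, peak thresholds, assignment of peaks, motif window and gene link distance were varied. Shares have Wilson 95% intervals and ratios exact binomial ones. Since each group had 1 merged library, there was no test between arms. The clusters, gene lists and motifs were chosen with earlier results of these data known. Named were the 10 highest clusters, those on either side of the threshold, the 5 with the largest excess and the 5 with the largest deficit of BRG1 peaks in NanogBiD, 3 and 3 likewise for FLAG and for H3K4me1, with ties broken by the difference in summed height, and genes of 16 lists linked to a cluster. The stitching was tested on simulated data, where 500 of 500 clusters had the correct span and height. Python 3.11.15, pandas 2.3.3 and SciPy 1.17.1 were used.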

Additional observations from a re-analysis of the deposited data

Results flagged for a closer look

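In the 400 clusters the number of H3K4me1 peaks in NanogBiD over that in NanogWT was 0.851, and this was the only target below 1, since FLAG, BRG1 and H3K27ac gave 1.06, 1.22 and 1.07. H3K27ac peaks of both arms also chose the clusters, so nothing is read from the H3K27ac ratio. The FLAG interval (0.985 to 1.14) included 1, though not with gaps of up to 20 kb, with ranking by NanogBiD heights or with at least 15 tags, where it lay above 1, and the ratio over the whole H3K4me1 lists was 0.791. With lists of 20000 peaks each, kept by score, the ratios were 1.002 for H3K4me1, 0.930 for FLAG and 0.909 for BRG1, where the cut sets the ratios of the whole lists to about 1. The difference between targets was not tested, because every group was a single merged library. H3K4me1 heights at constituents called in both arms were lower in NanogBiD as well, with a median log2 ratio of -0.25, and the number of tags in each library is unknown.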

How the results depend on the processing

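The lists differ in length, no tag totals are known and heights are whole tags, so a threshold changes what is compared. Cutting each list to its 20000 highest-scoring peaks turned the peak number ratios to 0.930 for FLAG, 0.909 for BRG1 and 1.002 for H3K4me1. It gave a FLAG ratio of 0.918 in other clusters and BRG1 shares of constituents of 73.5% in NanogWT and 67.4% in NanogBiD. Clusters with more minus fewer peaks became -33 for FLAG, -58 for BRG1 and 4 for H3K4me1, and NanogBiD minus NanogWT became 1 for H3K4me1 at Tgfbr2 and -1 for BRG1 at Cdc42ep3. The cut gives both arms lists of one length, so ratios of whole lists are about 1 there by construction. The FLAG interval lay above 1 with gaps of up to 20 kb (1.09), ranking by NanogBiD heights (1.11) and at least 15 tags (1.12). The BRG1 shares in NanogWT and NanogBiD were 71.9% and 82.2% with gaps of up to 5 kb, 57.1% and 71.3% with 20 kb, and 58.8% and 76.6% when ranked by NanogBiD heights. Ranking by NanogWT heights gave 70.6% in NanogBiD, and ranking by scores gave 63.8% in NanogWT. With a score of at least 100 the NanogWT share was 56.7% and the H3K4me1 ratio 0.749. With a height of at least 15 tags the shares were 46.996% and 62.6%, the BRG1 ratio 1.33 and the H3K4me1 ratio 0.752. With constituents acetylated in both arms, an alternative chosen after seeing the data, the shares were 78.4% and 85.7% and the BRG1 ratio 1.097. The BRG1 ratio stayed above 1 in all settings run except the cut to 20000 peaks.

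The log2 ratio of the clusters minus that of other clusters changed sign for FLAG when ranked by NanogBiD heights (0.038) and with 20000 peaks (0.019). For H3K4me1 it did so when ranked by NanogBiD heights (0.0048), with a score of at least 100 (0.030), with 20000 peaks (0.046), with at least 15 tags (0.12) and with constituents acetylated in both arms (0.011). In single clusters, peak differences became -1 for H3K4me1 at Lrig1 and 1 for BRG1 at Ldhal6b with a score of at least 100. With at least 15 tags, BRG1 differences became 1 at Dlk1, 3 at Tgfbr3 and 1 at Irf2. With constituents acetylated in both arms, FLAG became 1 at Lep and -1 for clusters with more minus fewer peaks. Of the other comparisons of a value with its main setting, 842 stayed within the counting interval or, for differences and counts, near the main value. In 362 the value moved further without taking the opposite sign, which can include differences that vanished.

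No paired analysis was possible because only 1 library, already pooled over replicates, stood for any combination of arm and target.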
